A study of Mus musculus with 6 samples.

Results

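The peroxisome proliferator-activated receptors (PPARs), the estrogen-related receptors (ERRs), the retinoid X receptors (RXRs) and the PGC-1 coactivators were followed in RNA-seq of mouse dorsal skin. The set held 10 genes, Ppara, Pparg, Ppard, Rxra, Rxrg, Ppargc1a, Ppargc1b, Esrra, Esrrb and Esrrg, which were taken by gene name from the 21959 genes of the deposited table, and all 10 passed the filter on low counts. The libraries came from male C57BL/6 mice that were shaved on the back in telogen, the resting phase of the hair cycle, at 7 weeks of age. One group of 3 mice received topical vehicle, a mixture of dipropylene glycol and distilled water, and one group of 3 mice received 3% rebamipide, a gastroprotective drug, every day for 7 days. All mice were of the same strain without a genetic alteration, and the comparison addressed which genes differed in the skin after the treatment.

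PPARs are nuclear receptors that bind fatty acids and their derivatives and act on DNA as heterodimers with an RXR. PPARγ is the master regulator of fat cell differentiation, PPARα drives fatty acid oxidation, and PPARδ is the form found in most tissues and studied in keratinocytes. PGC-1α and PGC-1β carry no DNA-binding domain of their own and are recruited by PPARs and ERRs to genes of mitochondrial energy metabolism, and the ERRs, which have no known natural hormone, bind the promoters of many of those genes.

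The letters that these receptors read were searched in the promoters. The core motif that PPAR and RXR share is AGGTCA, a PPAR:RXR element (named DR1) is a direct repeat of that core with 1 base of any kind between the copies, and an ERR element is a core extended by 3 bases (TCAAGGTCA), so that each of these elements holds a core. The windows ran from 250 bases before to 50 bases after each RefSeq start on the build GRCm38.p6, both strands were searched, and 9 of the 10 genes were matched, with 17 windows. The stretches that follow hold every AGGTCA found near the starts of these genes, with the core in capitals on the strand of the gene, where TGACCT is the core read on the other strand.

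Pparg, first start, chr6:115361108-115361129, plus strand: gccgcctcAGGTCAgagtcgcc
Pparg, second start, chr6:115362332-115362353, plus strand: acgcgaggAGGTCAagaagggg
Rxra, chr2:27709197-27709218, plus strand: aatgggtgTGACCTgagtaatg
Rxra, chr2:27709236-27709257, plus strand: ggcaggaaAGGTCAgtcactct
Rxrg, chr1:167618169-167618190, plus strand: gggttgaaAGGTCAgctgaaag

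The core was found in 4 of the 17 windows (23.5%), against 16.3% of all 32851 promoter windows. The genes with it were Pparg, Rxra and Rxrg, 3 of 9 (33.3%) against 18.1% of 27025 genes. Neither the PPAR:RXR element nor the ERR element was found in any of the 17 windows, and they were found in 0.0396% and 0.423% of all windows. A relaxed DR1, in which the base before the last CA of each copy is free and which includes the strict form, was found in 0 of the 17 windows and in 0.381% of all windows. These matches describe letters within a short window and not binding.

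Libraries summed to between 38676018 and 39915276 counts with vehicle and between 32709801 and 34706852 with rebamipide, and a count of 0 allows up to 3 counts, or 0.0601 to 0.117 CPM, for counting error alone. Levels are given as CPM, counts scaled to library size with edgeR's TMM factors, since the 10 top genes held 20.23% to 30.36% of the rebamipide counts against 7.2% to 10.56% with vehicle. Genes encoded by the mitochondrial genome held 13.28% to 21.96% with rebamipide and 2.59% to 5.36% with vehicle, and the part of this difference in the results was not tested. The 14875 genes tested had a median log2 fold change of -0.17 on that scale and of -0.78 when scaled by total counts alone. The third rebamipide library stood apart from the others in its keratinocyte and sebaceous gland markers. It had 0 counts for 2 of 7 basal keratinocyte, 4 of 8 suprabasal keratinocyte and 2 of 6 sebaceous gland genes, including Krt14. Its value is given for each of the 10 regulators. The second rebamipide library, like the third, was below every vehicle library in the mean of 7 fibroblast genes. That mean log2 CPM was 9.17 to 10.04 with vehicle and 9.44, 7.75 and 6.90 with rebamipide. Each library came from 1 mouse, full-thickness skin is a mixture of cell types, and in such bulk samples fewer cells of a type and less RNA per cell cannot be told apart.

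Of the 10 regulators, Ppara, Pparg, Rxrg, Ppargc1b and Esrra were higher in rebamipide-treated skin and none was lower (edgeR's quasi-likelihood test, Benjamini-Hochberg adjusted p under 0.05 over all genes tested). These 5 of 10 compare with 14.1% of all genes tested that were higher and 6.51% that were lower. At an unadjusted p under 0.05 also 0 of the 10 were lower by edgeR, DESeq2 or limma-voom. By edgeR 39.7% of all genes tested, higher or lower, were at that p, a share that also holds for the lists below. DESeq2 called 7 of the 10 higher, with Ppargc1a and Esrrg added, where it called 18.3% of all genes higher. The groups did not overlap in 8 of the 10 genes, all higher with rebamipide, a pattern that 24.5% of all genes tested showed. Ppard and Rxra were the 2 genes whose groups overlapped. With 3 libraries against 3 the smallest p that a two-sided exact permutation test can give is 0.1, which was its value for each of the 8 genes.

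**Figure D1:**
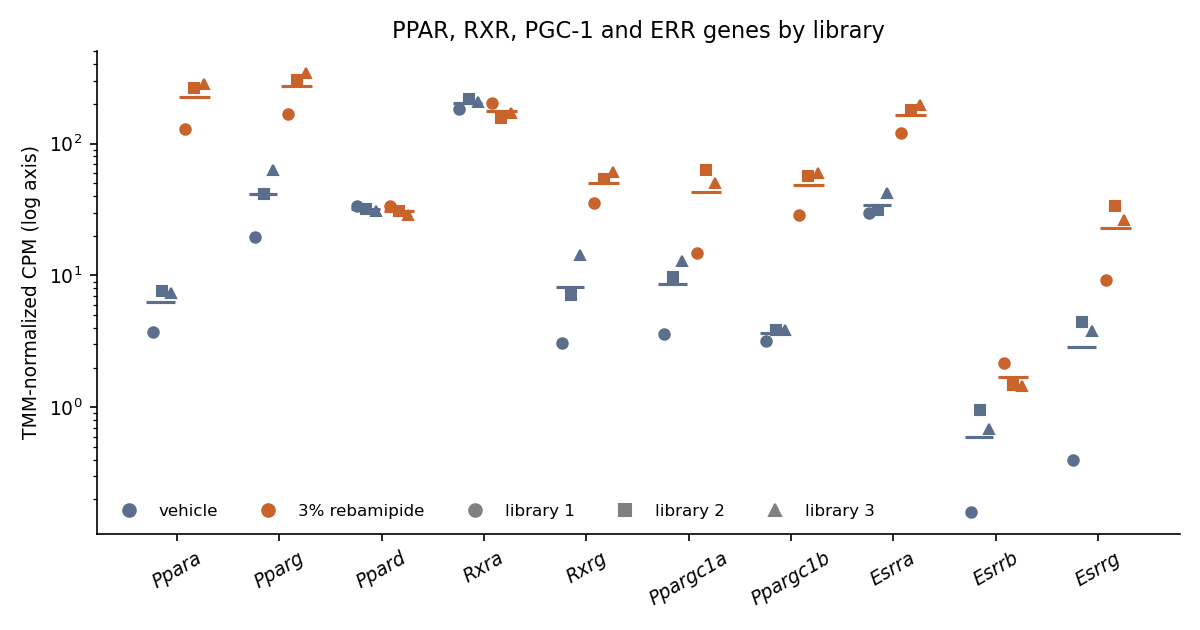
TMM-normalized CPM of the 10 regulators (log axis) in each of 3 vehicle and 3 rebamipide libraries, with symbols for the libraries and lines for the group means. Ppara and Ppargc1b have the widest gaps between the groups, while the points of Ppard and Rxra overlap.

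Ppara (ENSMUSG00000022383, chromosome 15, 85619184 to 85687020 in the deposited table, build GRCm39) had the steepest rise of the set. The vehicle libraries had 3.73, 7.68 and 7.33 CPM, and the rebamipide libraries had 130, 265 and 282 CPM. The lowest rebamipide library was far above the highest vehicle library, and the first library was the lowest in both groups. The mean went from 6.25 ± 2.19 to 226 ± 83.5 CPM (SD, n = 3 each), a log2 fold change of 5.17 ± 0.48 (SE, adjusted p = 0.00939, edgeR).

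Pparg (ENSMUSG00000000440, chromosome 6, 115337912 to 115467360) encodes the adipocyte PPAR, and its promoter stretches with the core were shown above. It was at 19.5, 41.6 and 62.8 CPM with vehicle and at 169, 305 and 345 CPM with rebamipide. The groups did not overlap, though the vehicle libraries spread more than for Ppara. The mean rose from 41.3 ± 21.6 to 273 ± 92.6 CPM, with a log2 fold change of 2.73 ± 0.51 (SE, adjusted p = 0.0192, edgeR). Ppard (ENSMUSG00000002250, chromosome 17, 28451674 to 28520448) was at 33.6, 32.1 and 30.8 CPM with vehicle and at 33.5, 30.7 and 28.8 CPM with rebamipide. Its 6 values lay within a narrow band, including the third rebamipide library with its missing keratinocyte markers. edgeR gave a log2 fold change of -0.05 ± 0.17 (SE, adjusted p = 0.831), and total counts alone gave -0.66 (adjusted p = 0.0518, edgeR), against the median of -0.78 of all genes on that scale.

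The make-up of the PPAR family differed between the groups. In deposited FPKM, which divide by gene length and so allow genes to be compared, Ppara held 8.06%, 9.83% and 7.01% of the summed PPAR level in the vehicle libraries and 35.5%, 39.1% and 37.9% in the rebamipide libraries. The rebamipide values lay close together and well apart from the vehicle values. The Ppard share was 37.1%, 21% and 15% with vehicle and 4.68%, 2.32% and 1.97% with rebamipide, and the Pparg share overlapped between the groups, at 67.3% ± 11.7 and 59.5% ± 0.859. The summed PPAR level was 24.5 ± 8.81 FPKM with vehicle and 122 ± 30.2 FPKM with rebamipide.

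The ratio of 2 genes within a library does not depend on how libraries are scaled to each other. Ppara had 0.147, 0.142 and 0.0901 reads per kilobase for each Pparg read per kilobase in the vehicle libraries and 0.592, 0.669 and 0.63 in the rebamipide libraries. The log2 ratio differed by 2.35 between the groups without overlap (p = 0.1, two-sided exact permutation test, the smallest it can give, 0.14 after Benjamini-Hochberg adjustment over the 7 ratios tested). The Ppara to Ppard ratio was 0.218, 0.469 and 0.467 with vehicle and 7.58, 16.9 and 19.2 with rebamipide, below 1 in every vehicle library and above 1 in every rebamipide library. Its log2 difference was 5.22, and that of Ppard to Pparg was -2.87, both without overlap and with the same exact permutation p of 0.1.

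The RXRs are the shared partners of PPARs, retinoic acid receptors, thyroid hormone receptors and others. Rxra (ENSMUSG00000015846, chromosome 2, 27566452 to 27652969) was at 182, 218 and 208 CPM with vehicle and at 203, 157 and 172 CPM with rebamipide. The groups overlapped, with a log2 fold change of -0.20, a standard error of 0.20 and an adjusted p of 0.481 (edgeR). Scaling by total counts alone gave -0.79 (adjusted p = 0.0479, edgeR), a call that TMM scaling did not give, and a value that is again near the median of all genes under that scaling.

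Rxrg (ENSMUSG00000015843, chromosome 1, 167425953 to 167467192), the RXR with the most restricted expression, was at 3.06, 7.11 and 14.2 CPM with vehicle and at 35.7, 54.1 and 60.8 CPM with rebamipide. The third rebamipide library was the highest, and in both groups the first was the lowest. The mean rose from 8.14 ± 5.66 to 50.2 ± 13 CPM, with a log2 fold change of 2.62 ± 0.58 (SE, adjusted p = 0.0291, edgeR). Rxrb, the remaining RXR and no member of the set, was at 34.3, 26.4 and 28.3 CPM with vehicle and at 44.2, 49.9 and 57.7 CPM with rebamipide. edgeR gave a log2 fold change of 0.77 ± 0.20 (SE, adjusted p = 0.042), and total counts alone gave 0.14 (adjusted p = 0.556, edgeR), so this call rested on the scaling.

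The summed RXR level was 53.5 ± 3.37 FPKM with vehicle and 50.6 ± 4.67 FPKM with rebamipide, on a scale that divides by total counts and carries no TMM factor, while the shares within a library do not depend on that scaling. Rxrg held 3.43%, 6.97% and 13.4% of it in the vehicle libraries and 26.4%, 38.6% and 38.7% in the rebamipide libraries. Rxra held 74.6% ± 3.39 with vehicle and 45.2% ± 8.29 with rebamipide, and the Rxrb share overlapped, at 17.5% ± 4.06 and 20.3% ± 1.23. Rxrg had 0.0462, 0.0894 and 0.188 reads per kilobase for each of Rxra with vehicle, and 0.483, 0.947 and 0.969 with rebamipide. The log2 difference was 3.05 without overlap, and that of Rxra to Rxrb was -0.97 without overlap (p = 0.1 for each, exact permutation test, 0.14 adjusted over the 7 ratios).

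**Figure D2:**
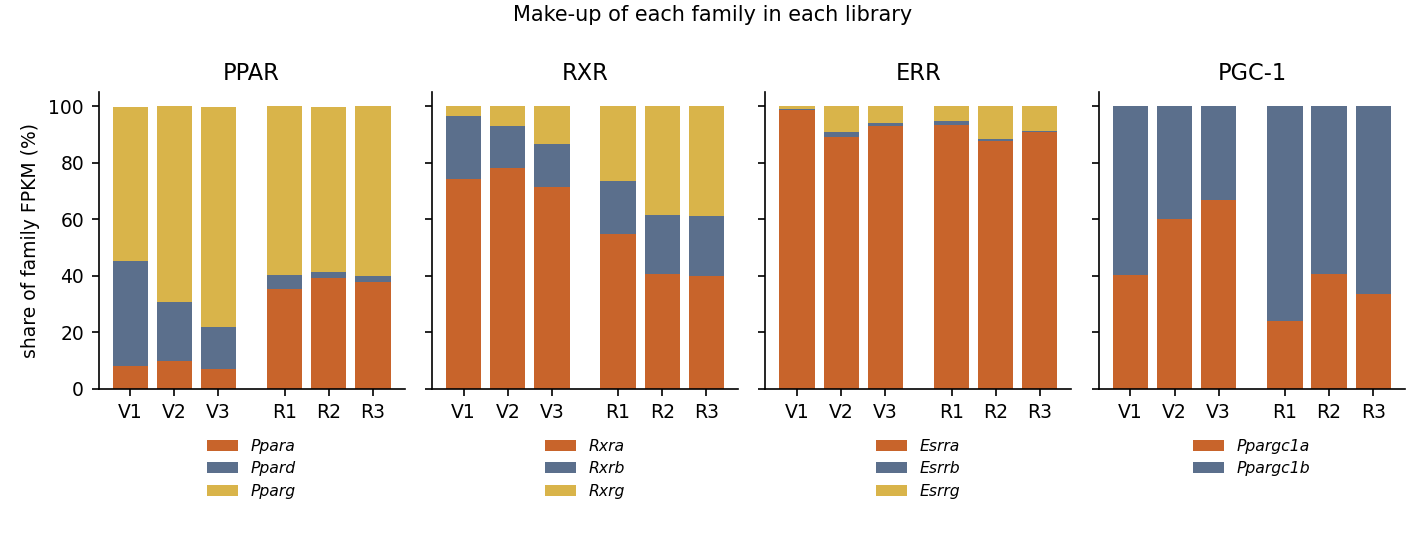
Share of each gene in the summed FPKM of its family (percent, stacked bars) in vehicle libraries V1 to V3 and rebamipide libraries R1 to R3. Ppara takes 35.5% to 39.1% of the PPAR level and Rxrg 26.4% to 38.7% of the RXR level in the rebamipide libraries, against at most 9.83% and 13.4% in the vehicle libraries.

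The 2 PGC-1 coactivators differed in the spread of their libraries. Ppargc1b (ENSMUSG00000033871, chromosome 18, 61431207 to 61533502), which encodes PGC-1β, was at 3.21, 3.88 and 3.85 CPM with vehicle and at 28.6, 56.4 and 59.5 CPM with rebamipide. The vehicle libraries lay close together, and every rebamipide library was far above them. The mean rose from 3.64 ± 0.381 to 48.2 ± 17 CPM, with a log2 fold change of 3.72 ± 0.35 (SE, adjusted p = 0.00939, edgeR).

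Ppargc1a (ENSMUSG00000029167, chromosome 5, 51611592 to 51725068), which encodes PGC-1α, the cold- and exercise-responsive form, was at 3.57, 9.71 and 12.8 CPM with vehicle and at 14.9, 63.6 and 50 CPM with rebamipide. The first rebamipide library was barely above the third vehicle library, and the other two were far above. The difference on the log2 scale was 2.30 ± 0.68 (SE), with an adjusted p of 0.0594 by edgeR, 0.074 by limma-voom and 0.00442 by DESeq2. The ratio of Ppargc1a to Ppargc1b per kilobase was 0.673, 1.51 and 2.01 with vehicle and 0.316, 0.683 and 0.509 with rebamipide. These groups overlapped, with a log2 difference of -1.41 (p = 0.2, exact permutation test). The summed PGC-1 level was 2.75 ± 0.929 FPKM with vehicle and 14.5 ± 4.98 FPKM with rebamipide.

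Esrra (ENSMUSG00000024955, chromosome 19, 6888345 to 6899208), which encodes ERRα, a regulator of genes of oxidative phosphorylation and itself a target of PGC-1, was at 29.7, 31.2 and 42.3 CPM with vehicle and at 120, 180 and 198 CPM with rebamipide. The groups were well separated and the spread within each was moderate. The mean rose from 34.4 ± 6.91 to 166 ± 41.2 CPM, with a log2 fold change of 2.27 ± 0.28 (SE, adjusted p = 0.00958, edgeR). In the deposited table Esrra overlaps Trmt112 on the opposite strand, and the strand setting of the counting is not given in the sources used here, so that reads of the shared part cannot be assigned. No other member overlapped a gene of the table.

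Esrrg (ENSMUSG00000026610, chromosome 1, 187340988 to 187947082), the ERR of tissues with high oxidative capacity, was at 0.401, 4.47 and 3.78 CPM with vehicle and at 9.29, 33.6 and 26.4 CPM with rebamipide. The first library was the lowest of each group by a wide margin. The difference on the log2 scale was 3.00 ± 0.94 (SE), with an adjusted p of 0.0669 by edgeR, 0.0557 by limma-voom and 0.00275 by DESeq2. Esrrb (ENSMUSG00000021255, chromosome 12, 86407891 to 86568402), known from pluripotent stem cells, had few reads, with 8, 47 and 32 counts in the vehicle libraries and 66, 38 and 38 counts in the rebamipide libraries. In CPM its groups did not overlap, at 0.16, 0.954 and 0.684 against 2.17, 1.48 and 1.45, but its raw counts did. edgeR gave a log2 fold change of 1.5 ± 0.68 (SE, adjusted p = 0.151).

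The summed ERR level was 10.3 ± 1.94 FPKM with vehicle and 32.9 ± 5.43 FPKM with rebamipide, and Esrra held 93.5% ± 4.88 and 90.8% ± 2.89 of it, shares that overlapped. The Esrrg to Esrra ratio overlapped between the groups, with a log2 difference of 1.15 (p = 0.5, exact permutation test), which ranged from 0.14 to 1.83 when single libraries were left out.

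**Figure D3:**
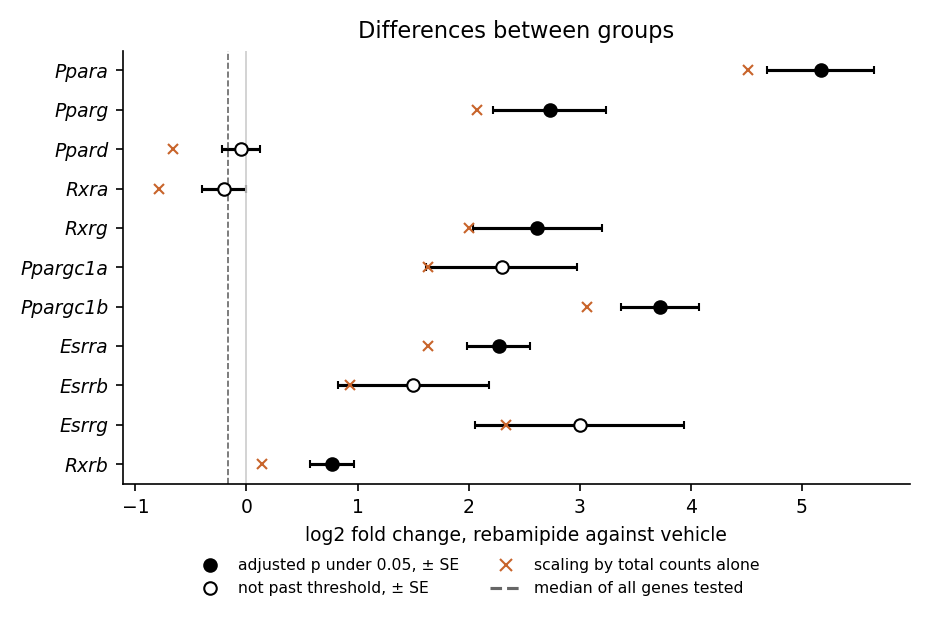
Log2 fold change (rebamipide against vehicle, edgeR) of the 10 regulators and Rxrb with its standard error, filled where the adjusted p was under 0.05, with crosses for scaling by total counts alone. The dashed line marks the median of all genes tested, -0.17; Ppara lies farthest from it at 5.17, and Ppard and Rxra lie beside it at -0.05 and -0.20.

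The order of the levels differed between the groups. On the FPKM scale Rxra was first with vehicle at 39.9, followed by Pparg at 17.2, Esrra at 9.64, Ppard at 5.32, Rxrg at 4.34, Ppara at 2.01, Ppargc1a at 1.62, Ppargc1b at 1.13, Esrrg at 0.569 and Esrrb at 0.122 (group means). With rebamipide Pparg was first at 72.8, followed by Ppara at 46.2, Esrra at 29.8, Rxra at 23, Rxrg at 17.3, Ppargc1b at 9.49, Ppargc1a at 5.01, Ppard at 3.36, Esrrg at 2.88 and Esrrb at 0.233. Not all neighbours in this order were separated. With vehicle 3 of the 9 neighbouring pairs had ranges that did not overlap, Rxra above Pparg, Esrra above Ppard and Ppargc1b above Esrrg. With rebamipide 2 of 9 did, Rxrg above Ppargc1b and Esrrg above Esrrb.

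The levels of adipocyte markers moved with these genes. The mean log2 CPM of 12 general adipocyte genes was 7.30 to 8.86 with vehicle and 9.95 to 10.39 with rebamipide, with 7 of the 12 higher and 0 lower, against 14.1% and 6.51% of all genes. That of 8 brown adipocyte genes was 0.80 to 2.44 and 6.82 to 7.73, with 6 of the 8 higher and 0 lower, and Ucp1, the heat-producing uncoupling protein and defining marker of brown fat, was not counted in any vehicle library (0 counts) and reached 2669, 8591 and 5746 CPM with rebamipide. Their part in the results was not tested, and each regulator was set against the 12 adipocyte genes of its own library instead. The brown adipocyte genes, with a median log2 fold change of 3.99 against 2.23 for the 12, were not used as a reference. The differences that follow are thus relative to general adipocyte genes.

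On this relative scale Ppara was at -5.38, -5.28 and -5.97 (log2) with vehicle and at -2.93, -2.09 and -2.25 with rebamipide, where 0 is the mean of the adipocyte genes. The difference between the group means was 3.12 without overlap. Ppargc1b differed by 1.60, Rxrg by 0.81 and Pparg by 0.78, all without overlap, while Rxra and Ppard differed by -2.24 and -2.09 without overlap (p = 0.1 for each of the 6 genes, exact permutation test, not adjusted). The mean of the adipocyte genes itself differed by 2.03, so that a gene with the same CPM in both groups would come out at -2.03, near the values of Rxra and Ppard. Esrra, Ppargc1a, Esrrb and Esrrg overlapped, with differences of 0.22, 0.20, -0.36 and 1.31. With single libraries left out these ranged, in the same order, from 0.01 to 0.54, -0.21 to 0.74, -0.65 to 0.04 and 0.66 to 1.86. The 12 adipocyte genes did not move alike, with log2 fold changes of -0.53 for Lep, -0.23 for Retn and 0.34 for Cfd, which are named after their values were seen and whose groups overlapped, and of 2.05 for Adipoq, 2.61 for Plin1 and 2.40 for Cidec. Against the last 3 alone the difference was 2.66 for Ppara and 1.15 for Ppargc1b without overlap, and for Pparg it was 0.32 with overlap.

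**Figure D4:**
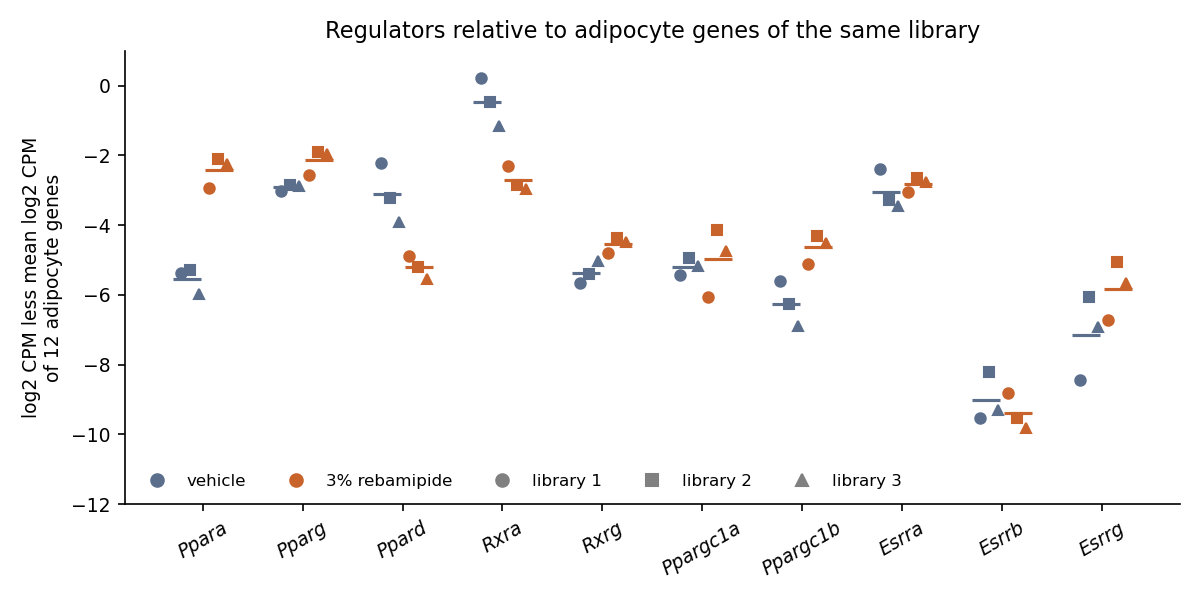
Log2 CPM of each regulator less the mean log2 CPM of 12 adipocyte genes in the same library, with symbols for the libraries and lines for the group means. Ppara differs by 3.12 between the group means and Ppargc1b by 1.60, while Esrra overlaps with a difference of 0.22.

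Skeletal muscle, which also expresses Rxrg, Esrrg and Ppargc1a, varied between libraries as well. The mean log2 CPM of 10 fast muscle genes was 9.02 to 11.37 with vehicle and 11.72, 9.45 and 4.67 with rebamipide, with 0 of 10 called in either direction and 0 at an unadjusted p under 0.05 lower. That of 6 slow muscle genes was -1.63 to 0.02 and 5.51, 4.29 and 0.11, with 4 of the 6 higher and 0 lower by edgeR, against the same 14.1% and 6.51% of all genes, calls that limma-voom did not give (adjusted p from 0.0812 to 0.167). In the third rebamipide library, where both muscle lists were the lowest of the treated group, Rxrg was at its highest value of 60.8 CPM and Esrrg and Ppargc1a were at 26.4 and 50 CPM, above the first rebamipide library, in which both muscle lists were at their highest. The part of muscle in the levels of these genes was not tested. Basal keratinocyte genes were at 7.97 to 8.48 with vehicle and at 6.89, 6.06 and -0.12 with rebamipide. Of the 7, 0 were called, against 6.51% of all genes lower. At an unadjusted p under 0.05, 2 were lower (edgeR), where 39.7% of all genes were higher or lower. The groups did not overlap in 6 of these 7 genes, all lower with rebamipide, where 24% of all genes were, and DESeq2 called Itgb4 and Trp63 lower (adjusted p = 0.00826 and 0.00746), both named after their values were seen. Endothelial genes were at 4.57 to 5.84 and 6.82 to 7.32, with 4 of 7 higher, against 14.1% of all genes, and their part in the results was not tested.

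A further list held 14 receptors, Rxrb and receptors most of which pair with RXR. Of these, 4 were higher, Rxrb among them, and 1 was lower, where 14.1% of all genes were higher and 6.51% lower, with a median log2 fold change of 0.67 against -0.17 for all genes, and of 0.04 against -0.78 with total counts alone. Nr1h3, which encodes the oxysterol receptor LXRα, was at 7.49, 15.5 and 22.7 CPM with vehicle and at 56.2, 94.7 and 107 CPM with rebamipide. Its groups were apart, with a log2 fold change of 2.50 ± 0.47 (SE, adjusted p = 0.0194, edgeR). Rarb, a retinoic acid receptor, rose from 0.897 ± 0.312 to 5.76 ± 0.916 CPM, and Thra, the thyroid hormone receptor TRα, rose from 64.2 ± 3.73 to 131 ± 21.7 CPM (adjusted p = 0.0178, edgeR). With total counts alone Thra, like Rxrb, was not called, at a log2 fold change of 0.40 (adjusted p = 0.0974, edgeR).

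The other receptors in this list included those of the epidermis. Rarg, the main retinoic acid receptor of skin, fell from 117 ± 23.2 to 47.3 ± 15 CPM (log2 fold change -1.31, adjusted p = 0.0293, edgeR). Vdr, the vitamin D receptor, was at 330, 162 and 68.8 CPM with vehicle and at 54.4, 16.6 and 6.14 CPM with rebamipide, without overlap. Its adjusted p was 0.0756 by edgeR, 0.0553 by limma-voom and 0.00344 by DESeq2. Both were lowest in the third rebamipide library, in which the keratinocyte genes were also lowest, and the part of keratinocytes in these values was not tested.

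General coactivators and corepressors of nuclear receptors were higher about as often as all genes. Of 21 tested, 3 were higher, against 14.1% of all genes, and 0 were lower, against 6.51%, with a median log2 fold change of -0.05. At an unadjusted p under 0.05, 2 of the 21 were lower (edgeR), where 39.7% of all genes were higher or lower. DESeq2 called 1 of them lower, against 17% of all genes, and with total counts alone 10 were lower, where 25.2% of all genes were lower, and the median was -0.69, beside the median of -0.78 of all genes on that scale. The 3 higher genes were Prdm16, which encodes a coregulator of brown fat identity and is also in the brown adipocyte list, Lpin1, whose protein lipin-1 is a phosphatidate phosphatase and a partner of PGC-1α, and Ncoa4, an adaptor for the autophagy of ferritin first described as a receptor coactivator. Prdm16 was at 4.13, 7.13 and 8.04 CPM with vehicle and at 27.8, 30.6 and 57.5 CPM with rebamipide. Lpin1 rose from 98.5 ± 53.5 to 596 ± 171 CPM and Ncoa4 from 57.5 ± 7.06 to 123 ± 39.7 CPM. With total counts alone 2 of the 21 were higher, against 8.46% of all genes, and Ncoa4 was not called, at a log2 fold change of 0.45 (adjusted p = 0.138, edgeR). Ncor1, a corepressor of nuclear receptors, was at 131 ± 16.9 and 119 ± 30.2 CPM (adjusted p = 0.684), and Nrip1, the corepressor RIP140, at 45.6 ± 6.09 and 27.2 ± 4.82 CPM (adjusted p = 0.0572, edgeR).

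Known targets of PPARα were for the most part higher. Of 20 listed genes 17 were tested, and 12 of these were higher and 0 lower, against 14.1% and 6.51% of all genes, with 0 lower at an unadjusted p under 0.05 (edgeR), 0 lower by DESeq2 and a median log2 fold change of 3.31. Pdk4, the kinase that shuts down pyruvate dehydrogenase when fat is burnt, was at 71.6, 126 and 230 CPM with vehicle and at 1857, 3646 and 3633 CPM with rebamipide. Acadvl, the very long-chain acyl-CoA dehydrogenase of mitochondrial β-oxidation, rose from 65.6 ± 9.63 to 1437 ± 441 CPM. Slc25a20, the carnitine-acylcarnitine carrier, rose from 53 ± 8.65 to 910 ± 340 CPM, and Hadha, the α subunit of the trifunctional protein of β-oxidation, from 252 ± 16.6 to 2404 ± 678 CPM. Acot2, a mitochondrial acyl-CoA thioesterase, rose from 8.05 ± 1.01 to 79.9 ± 26.2 CPM.

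Known targets of PPARγ were also higher for the most part, and 6 of the 16 are also in the adipocyte list. Of the 16 tested, 13 were higher and 1 lower, against 14.1% and 6.51% of all genes, with a median log2 fold change of 2.51. Pck1, the phosphoenolpyruvate carboxykinase that supplies glycerol 3-phosphate in fat cells, was at 56.7, 67.6 and 173 CPM with vehicle and at 3374, 6379 and 8053 CPM with rebamipide, a log2 fold change of 5.90 ± 0.71 (SE, adjusted p = 0.00953, edgeR). Aqp7, the glycerol channel of adipocytes, rose from 13.3 ± 4.98 to 357 ± 144 CPM, and Gpd1, the cytosolic glycerol 3-phosphate dehydrogenase, from 194 ± 90.7 to 4017 ± 967 CPM. These 3 genes, which act in glycerol handling, were named for their small p in this list, and no list of glycerol genes was tested. Lipe, the hormone-sensitive lipase, rose from 93.8 ± 35.7 to 779 ± 152 CPM, and Fabp4, the adipocyte fatty acid-binding protein, from 866 ± 263 to 8610 ± 3131 CPM. The 1 lower gene was Fabp5, named after its value was seen, the fatty acid-binding protein of epidermis, at 848, 623 and 600 CPM with vehicle and 259, 210 and 93.8 CPM with rebamipide (adjusted p = 0.0297, edgeR).

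Targets of PGC-1 and ERR, most of them nuclear genes for mitochondrial proteins, were higher in 13 of 19 and lower in 0, against 14.1% and 6.51% of all genes, with 0 lower at an unadjusted p under 0.05 (edgeR), 0 lower by DESeq2 and a median log2 fold change of 2.60. The list includes Esrra itself. Sdhb, a subunit of respiratory complex II, was at 88.4, 108 and 122 CPM with vehicle and at 609, 938 and 1079 CPM with rebamipide. The groups were far apart, with a log2 fold change of 3.04 ± 0.32 (SE, adjusted p = 0.00939, edgeR). Uqcrc1, a subunit of complex III, rose from 158 ± 29.5 to 1188 ± 308 CPM. Atp5b, the β subunit of ATP synthase, rose from 1120 ± 83.1 to 6769 ± 1675 CPM, and Sod2, the mitochondrial superoxide dismutase, from 124 ± 10.8 to 769 ± 200 CPM. Transcription factors of mitochondrial biogenesis in the same list, named after their values were seen, did not pass the threshold with edgeR. Their log2 fold changes were -0.48 for Nrf1, -0.13 for Gabpa, 0.51 for Tfam and 1.53 for Tfb2m. Of these, Tfb2m was at 20.9, 20.9 and 26.6 CPM with vehicle and at 28.7, 86.3 and 82.7 CPM with rebamipide, without overlap. Its adjusted p was 0.0524 by edgeR, 0.0767 by limma-voom and 0.00966 by DESeq2, which called it higher. With total counts alone 1 gene of the list was lower, against 25.2% of all genes. That gene was Nrf1 (adjusted p = 0.046, edgeR), while Tfam, at a log2 fold change of -0.14, was not called (adjusted p = 0.543, edgeR).

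**Figure D5:**
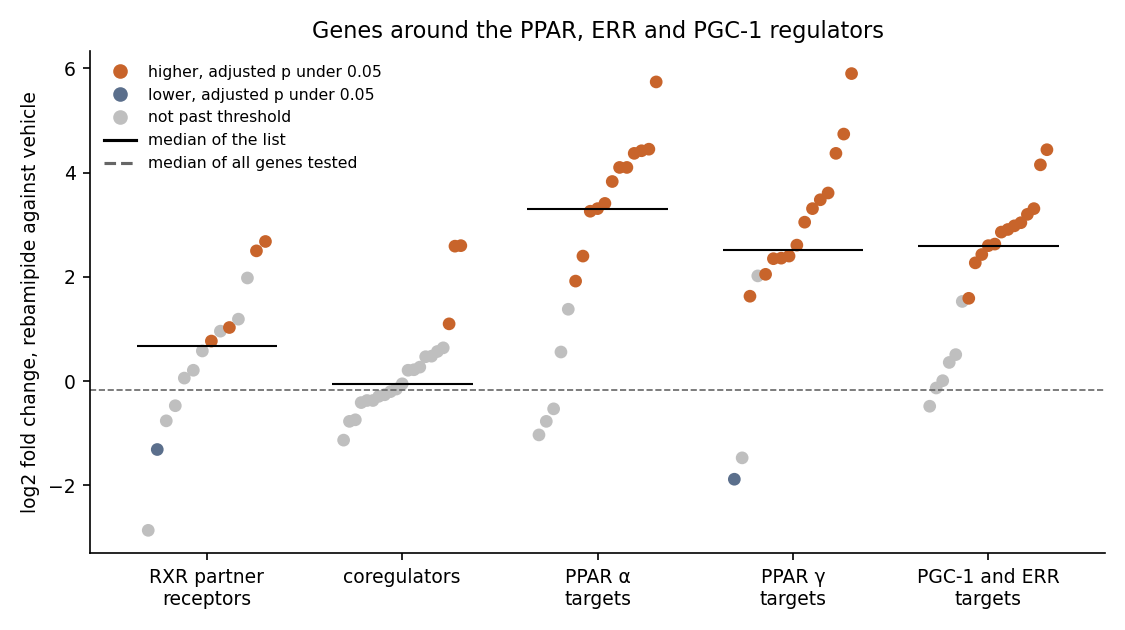
Log2 fold change (rebamipide against vehicle, edgeR) of each tested gene in 5 lists of genes around the regulators, colored by call, with the median of each list as a solid line and that of all genes as a dashed line. The medians of the PPARα, PPARγ and PGC-1 and ERR target lists are 3.31, 2.51 and 2.60, and those of the RXR partner receptors and coregulators are 0.67 and -0.05.

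The core was also looked for in the promoters of these lists, again on GRCm38.p6. It was found for 5 of 13 PPARα target genes (38.5%), 3 of 10 PPARγ target genes (30%), 1 of 16 PGC-1 and ERR target genes (6.25%), 5 of 13 genes of the RXR partner receptor list (38.5%) and 4 of 16 coregulator genes (25%), against 18.1% of all genes. Neither the PPAR:RXR element in its strict or relaxed form nor the ERR element was found in the windows of any list. The stretches around the core of the 2 named genes that rose most among those with one, and of Sdhb, the only gene with one among the PGC-1 and ERR targets, are given on the strand of the gene, with 1 of the 2 distinct stretches of Aqp7.

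Acadvl, chr11:70015502-70015523, minus strand: atcaccctAGGTCAggtagaat
Aqp7, chr4:41048172-41048193, minus strand: tccacctcTGACCTcacaaggg
Sdhb, chr4:140961177-140961198, plus strand: gactccagAGGTCAccttagga

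For each of the 5 regulators with a call, the genes with the most similar log2 CPM over the 6 libraries were listed as a description. With 6 libraries in 2 groups of unlike level, such correlations are high for many genes and share the group difference. Among the nearest genes to Ppara were Apba3 and Mdh2 (Pearson r = 0.9995 and 0.9991, n = 6), of which Mdh2 encodes the mitochondrial malate dehydrogenase. Those nearest to Pparg were Nr1h3, Dglucy and Zfp787 (r = 0.9999, 0.9997 and 0.9996), and those nearest to Rxrg were Tex261, Inka1 and Pttg1 (r = 0.9996, 0.9994 and 0.9993). Nearest to Ppargc1b were Spg7, which encodes a subunit of a protease of the inner mitochondrial membrane, Pyurf and Prkaca, the catalytic subunit of protein kinase A (r = 0.9997, 0.9996 and 0.9996). Nearest to Esrra were Pisd, the mitochondrial phosphatidylserine decarboxylase, Gpihbp1, which carries lipoprotein lipase across the capillary wall, and Spata6l (r = 0.9995, 0.9994 and 0.9994).

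The calls of the set depended on single libraries in edgeR. Without the second vehicle library 0 of the 10 genes, and 0 of all genes, were called (smallest adjusted p = 0.0747, edgeR), with 7 of the 10 at an unadjusted p under 0.05, as were 27.5% of all genes. DESeq2 then called 7 of the 10 higher against 14% of all genes, and limma-voom 1 against 1.4%. Without the second rebamipide library 0 of the 10 were called (smallest adjusted p of the 10 = 0.0573, edgeR), against 0.00652% of all genes called higher, and 6 were at an unadjusted p under 0.05, as were 26.5% of all genes. DESeq2 then called 7 against 17.5% of all genes, and limma-voom 3 against 1.67%. Without the second vehicle library, and likewise without the second rebamipide library, edgeR also called 0 genes higher in each of the 5 lists of receptors, coregulators and targets. Without the third rebamipide library, the one with few keratinocyte reads, Ppara, Pparg, Ppargc1b and Esrra were called and Rxrg was not, against 6.6% of all genes called higher. The log2 fold changes of the 5 regulators stayed positive, ranging over all 6 such edgeR fits from 4.87 to 5.46 for Ppara, 2.35 to 3.16 for Pparg, 2.19 to 3.30 for Rxrg, 3.55 to 3.99 for Ppargc1b and 2.13 to 2.46 for Esrra.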

How the data were processed

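RNA-seq of dorsal skin was analysed for 3 vehicle and 3 rebamipide mice. The deposited table gives read counts per gene and FPKM. Per the submitters' processing notes, fastp 0.22.0, HISAT2 2.1.0, HTSeq 0.9.1 and GRCm39 were used. The counts deposited by the authors are not normalized, and the FPKM deposited by the authors equal counts divided by gene length and the library's total. Counts were tested in R 4.3.3 with edgeR 4.0.16 (TMM, filterByExpr, quasi-likelihood test, Benjamini-Hochberg adjustment over 14875 genes). The test was also run on simulated counts, with 200 of 15053 genes changed 4-fold and the same dispersion of 0.1 for every gene. These counts did not copy the large share of few genes or the unlike libraries of the real data, so the check does not cover them. Log2 CPM used a prior count of 2, and ratios within a library had 0.5 added to each count. Exact permutation tests used scipy 1.17.1. P-values compare the difference between the groups with the spread between libraries, and do not separate treatment from differences in cell mixture.

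The members, lists and tests were chosen with earlier results of these data known. The text names all members, Rxrb, of each pathway list the 4 genes with the smallest p and the 2 with the highest mean CPM, and the 3 genes most like each called member. Some genes that this rule names are not reported here. Of 7 fibroblast, 6 leukocyte and 6 sebaceous gland genes 0 were higher and 0, 0 and 1 lower (Mc5r), with medians of -1.23, -0.67 and -2.03 and of 8 suprabasal keratinocyte genes 0 were called, with a median of -2.55 (log2), against 14.1% of all genes higher and 6.51% lower. The groups did not overlap, lower with rebamipide, in 1 fibroblast, 0 leukocyte, 4 sebaceous and 4 suprabasal genes, against 24% of all genes. Alternatives were DESeq2 1.42.0, limma-voom (limma 3.58.1), other scalings, no filter, at least 10 counts in every library, limma on log2(FPKM + 1) and log2(FPKM + 0.1), the study's thresholds, a replicate block and each library left out. Same-numbered libraries did not deviate together (r = -0.016, -0.038 and 0.003). Promoter sequences are from RefSeq, GRCm38.p6, and its coordinates were not mixed with those of the table.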

Additional observations from a re-analysis of the deposited data

How the results depend on the processing

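With edgeR the number of regulators called higher, 5 with all libraries, was 0 to 6 when single libraries were left out, 7 to 7 with DESeq2 and 1 to 7 with limma-voom, both of the latter added after the data were seen. The number called lower was 1 (Rxra) with limma on log2(FPKM + 0.1), limma on log2(FPKM + 1) and total counts alone, and 0 otherwise. A replicate block, for libraries that share only a number, called 7 higher (Ppargc1a and Esrrg added), as did DESeq2 and the filter of 10 counts, the study's thresholds gave 7, and log2(FPKM + 1) gave 6. The block called 2 RXR partner receptors lower. Of these receptors 6 were higher with DESeq2, 2 were higher with both FPKM fits and total counts alone, and 3 were lower with both FPKM fits, 2 with DESeq2 and 2 with the study's thresholds. Coregulators lower were 10 with log2(FPKM + 0.1), 9 with log2(FPKM + 1), 10 with total counts alone, and 1 with DESeq2, the filter of 10 counts, upper quartile factors and the study's thresholds. PGC-1 and ERR targets lower were 1 with both FPKM fits and total counts alone. The cause was not tested. Of all genes tested, the share higher was 18.3% with DESeq2, 9.35% with log2(FPKM + 0.1), 9.42% with log2(FPKM + 1), 8.46% with total counts alone, 9.63% with the replicate block, 17% with the filter of 10 counts and 14.3% with the study's thresholds. The share lower was, in the same order, 17%, 32.1%, 32.3%, 25.2%, 5.75%, 11.9% and 14.5%, and 7.93% with upper quartile factors.

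Leaving out single libraries gave, with edgeR, DESeq2 and limma-voom, 0 to 7, 3 to 8 and 0 to 7 RXR partner receptors higher and 0 to 3, 1 to 3 and 0 to 3 lower. Coregulators higher ranged 0 to 4, 2 to 6 and 0 to 4, and lower 0 to 0, 0 to 3 and 0 to 1. PPARα targets higher ranged 0 to 13, 12 to 14 and 8 to 13, and lower 0 to 0, 0 to 1 and 0 to 0. PPARγ targets higher ranged 0 to 14, 14 to 14 and 5 to 14, and lower 0 to 1, 1 to 1 and 0 to 1. PGC-1 and ERR targets higher ranged 0 to 15, 13 to 15 and 6 to 15. Each lowest edgeR count of higher genes, 0, came without the second vehicle library and without the second rebamipide library, where edgeR called 0 and 1 of all genes. Of all genes, these fits called 0% to 18.3% higher and 0% to 12.8% lower with edgeR, 13.3% to 23.8% and 9.48% to 27.3% with DESeq2, and 1.4% to 18.1% and 0.0468% to 9.16% with limma-voom. The Ppard log2 fold change ranged -0.11 to 0.01 with edgeR, -0.10 to 0.03 with DESeq2 and -0.11 to 0.01 with limma-voom, and was above 0 without the third rebamipide library.

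Against Adipoq, Plin1 and Cidec alone, 3 of the 7 called higher among the 12 adipocyte genes, the difference from adipocyte genes was 2.66 for Ppara, 0.32 for Pparg, 0.35 for Rxrg and -0.24 for Esrra. With 3 libraries a group the exact tests cannot go below 0.1, and Esrrb had only 8 to 66 counts.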
